A study of Mus musculus with 6 samples.

Results

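Growth factors reach muscle stem cells (satellite cells, SCs) through receptors in the plasma membrane, and most of these receptors are tyrosine kinases. Binding of a ligand switches on the kinase, which recruits adaptors and sets off the Ras-MAPK and PI3K-Akt cascades. Met, the receptor of hepatocyte growth factor, and the FGF and IGF receptors are known for their part in bringing SCs out of quiescence. Sprouty proteins are feedback brakes on the Ras-MAPK cascade, and Spry1 is known for its role in the return of SCs to quiescence.

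The genes described here were 9, taken by name out of 55376 in the deposited tables. They comprised 7 receptors (Met, Fgfr1, Fgfr4, Igf1r, Igf2r, Insr and Egfr) and 2 Sprouty genes (Spry1 and Spry2). The question was how far the transcripts of these genes came down with CPEB1, an RNA-binding protein that recognises cytoplasmic polyadenylation elements (CPEs) in 3′ UTRs and controls translation. RIP-seq was performed on freshly isolated SCs of C57BL/6 mice aged 3 months, with 2 libraries from an immunoprecipitation with a CPEB1 antibody (CPEB1 IP), 2 from an immunoprecipitation with control IgG, and 2 from input RNA. No group carried a transgene, a deleted gene or a treatment by its labels. The cells were sorted by FACS as negative for CD31, CD45 and Sca1 and positive for Vcam1, and the libraries of an immunoprecipitation came from independent experiments. How many mice were pooled for a library is not given in the sources used here. The IgG values were deposited apart from those of input and CPEB1 IP. Any difference in handling cannot be told apart from the antibody.

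CPEs are shown first, since they are the elements that CPEB1 binds. Both canonical forms, TTTTAT and TTTTAAT, were searched on the sense strand of the longest annotated 3′ UTR of each gene, with overlapping matches counted. Every one of the 9 genes had at least 1 canonical CPE. Of all 21020 protein-coding genes with an annotated 3′ UTR, 56.6% had one. The share rises with the length of the 3′ UTR, so each gene was also set beside genes whose 3′ UTR was within 20% of its own length. Spry2, with 3 CPEs in 856 bases, and Spry1, with 3 in 1047 bases, had the highest densities of the 9, at 3.51 and 2.87 per kb. Among genes of like length, 55.1% had a canonical CPE for Spry2 and 61.4% for Spry1, with a median of 1. Fgfr4 had a single CPE in 584 bases, where 44.1% of genes of like length had one, and Igf2r a single CPE in 1304 bases, where 68.3% had one. The medians there were 0 and 1. Fgfr1 had 3 CPEs in 1797 bases and Met 5 in 2157 bases, where 80.1% and 85.7% of genes of like length had one, with a median of 2. The long 3′ UTRs of Insr, Igf1r and Egfr held 9, 8 and 7 CPEs in 4747, 7267 and 6303 bases. Among genes of such lengths at least 96.7% had one, and the medians were 6, 10 and 8. Igf1r and Egfr thus had fewer CPEs than the median gene of like length.

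The sites printed are a selection, namely all those of Spry1, Spry2, Fgfr4 and Igf2r and the last of Fgfr1. Those of Met, Igf1r, Insr and Egfr are left out, although Insr had the most CPEs and was called against IgG below. Each is given 5′ to 3′ on the strand of the transcript from GENCODE M21 (mm10), with the CPE in capitals and 10 bases on either side.
Spry1 (chr3:37644331-37644356, +): tttttgtataTTTTATgtataaatca
Spry1 (chr3:37644395-37644420, +): ttaaacttttTTTTATtgtaaagaat
Spry1 (chr3:37644434-37644459, +): atctctattaTTTTATgatatttatt
Spry2 (chr14:105892081-105892106, -): ttatttgaagTTTTATtattttataa
Spry2 (chr14:105892073-105892098, -): agttttattaTTTTATaaaaaaaaag
Spry2 (chr14:105892021-105892046, -): attttgccccTTTTATgaggatgtga
Fgfr4 (chr13:55168704-55168729, +): aacatggcatTTTTATaaattatttt
Fgfr1, the last of its 3 (chr8:25575566-25575591, +): tatgaatggtTTTTATgctgaaagaa
Igf2r (chr17:12682452-12682478, -): ttctcttcatTTTTAATcaacttgact
The last CPE ended 149 bases before the annotated end of the transcript in Spry1, 84 in Spry2, 40 in Fgfr4, 137 in Fgfr1 and 56 in Igf2r. It lay farther from the end in Insr (444 bases), Egfr (563), Met (737) and Igf1r (1476). The last polyadenylation signal (AATAAA or ATTAAA) ended 19 bases before the end in Fgfr4, 18 in Igf2r and 950 in Fgfr1. For Insr, Igf1r, Egfr and Met it was 14, 15, 16 and 26 bases. None was found in the annotated 3′ UTR of Spry1 or Spry2.

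Counts on genes were between 3270067 and 3314547 in the input libraries, 1284716 and 1359052 in IgG, and 2564323 and 4941653 in CPEB1 IP. Genes with a count numbered 21150 and 20158 in input, 32381 and 32328 in IgG, and 25280 and 29465 in CPEB1 IP. The library totals behind the deposited FPKM were larger, and the counts on genes made up 71.1% and 79.8% of them in input, 69.9% and 69.5% in CPEB1 IP, and 39.5% and 39.1% in IgG. Levels are therefore given as CPM, counts scaled to library sizes normalized by TMM, unless FPKM is named. All 9 defining SC markers were present in every library (summed CPM 9430 to 12477). Sdc4 alone stood at 5231 to 7133 CPM, so the sum hides markers that moved. Against input, 5 of the 9 were lower and 1 higher in IgG (beside 40.7% of all genes called). In CPEB1 IP 3 were lower and 1 higher (beside 32.8%). Cdh15 went from 687 and 605 CPM in input to 79.8 and 73.6 in IgG and 124 and 143 in CPEB1 IP. The part of these shifts in the differences from input below was not tested. The 6 endothelial markers summed to 39.0 to 54.6 CPM in input, 204 to 218 in IgG and 275 to 296 in CPEB1 IP. Immune markers summed to 12.9 to 23.9, 46.6 to 52.4 and 11.2 to 21.3 CPM, myofibre markers to 66.8 to 81.9, 120.2 to 135 and 139 to 169, fibro-adipogenic markers to 689 to 701, 571 to 611 and 812 to 847, and smooth muscle and pericyte markers to 727 to 868, 300.1 to 307 and 403 to 405. No marker was at 0 in all 6 libraries. Myofibre and endothelial sums thus moved with both immunoprecipitations against input, in the direction opposite to smooth muscle and pericyte sums. These sums hide single markers too. Cldn5 alone was at 16.3 and 8.50 CPM in input, 133 and 112 in IgG and 173 and 194 in CPEB1 IP. In each immunoprecipitation 2 of 5 smooth muscle and pericyte markers were called lower than input. Of the fibro-adipogenic markers, 4 of 6 tested were higher and 1 lower in IgG, and 3 of 5 higher and 1 lower in CPEB1 IP. The part of these markers in the differences from input below was not tested. The sort against CD31, CD45 and Sca1 would remove endothelial, immune and Sca1-bearing fibro-adipogenic cells. Immune sums were highest in IgG, and their part in the differences from IgG was not tested either. In bulk libraries such as these, fewer cells of a type and less RNA in each cell cannot be told apart. A level in an immunoprecipitation also depends on how much RNA was brought down, which cannot be told apart from these either.

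Levels of different genes can be compared only per length, as FPKM. The share of the library totals on genes differed between groups, so FPKM are not compared from group to group. Only the order within a group is read here. In input, Fgfr1 was highest at 129 ± 8.09 FPKM (mean ± SD, n = 2), followed by Spry2 at 109 ± 36.6, Fgfr4 at 106 ± 6.01 and Spry1 at 98.6 ± 10.9, and the ranges of neighbours among these 4 overlapped. Igf2r followed at 22.9 ± 1.72, then Egfr at 18.2 ± 1.02, Met at 13.4 ± 0.385, Igf1r at 5.75 ± 0.477 and Insr at 1.20 ± 0.0183, each apart from its neighbours. In IgG, Fgfr1 was still first at 128 ± 10.3 FPKM and Spry2 second at 82.9 ± 6.29, but Fgfr4 stood at 12.9 ± 2.35, below Spry1 at 31.6 ± 1.96. In CPEB1 IP the order of the first 4 was Fgfr1 (164 ± 16.8), Spry2 (144 ± 24.0), Spry1 (73.5 ± 1.59) and Fgfr4 (28.1 ± 2.87), and only Fgfr1 and Spry2 overlapped. Insr was last in every group, with at most 1.22 FPKM in any library.

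**Figure D1:**
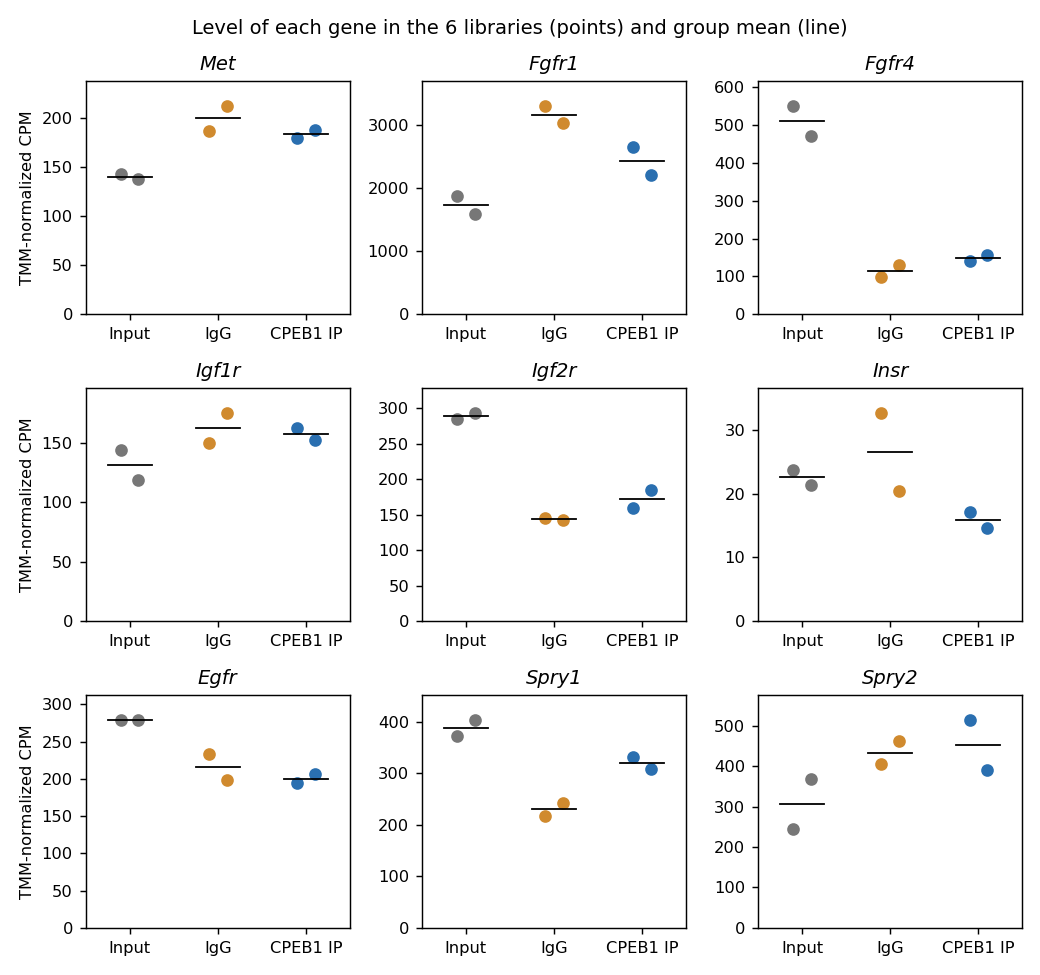
TMM-normalized CPM (vertical axis, from 0, a scale of its own for each gene) of the 9 genes in the 2 input, 2 IgG and 2 CPEB1 IP libraries. Points are libraries and lines are group means. Spry1 lies between 309 and 332 CPM in CPEB1 IP against 216 to 243 in IgG, and Fgfr4 is at 469 or above in input and at 157 or below in all 4 immunoprecipitations.

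Against IgG, Spry1 was the only one of the 9 genes that was higher in CPEB1 IP, and Fgfr1 and Insr were lower (edgeR's quasi-likelihood test, Benjamini-Hochberg adjusted p under 0.05 over all genes tested). These 3 of 9 genes (33.3%) stand beside 33.4% of all 12124 genes tested, and by direction the shares of all genes were 14.7% higher and 18.7% lower. The share of the 9 genes called was thus that of genes in general. CPM ranges did not overlap for 5 of the 9 genes, with Spry1, Fgfr4 and Igf2r higher and Fgfr1 and Insr lower, where 66.7% of all genes did not overlap (35.8% higher and 30.8% lower). Whether a gene counts as higher also depends on where the scale is set, and that is described after the single genes.

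Spry1 holds back signalling from FGF and other receptor kinases. Its level was 332 and 309 CPM in CPEB1 IP against 216 and 243 in IgG, with 373 and 404 in input. Both CPEB1 IP libraries lay above both IgG libraries and below both input libraries. Over IgG its log2 fold change was 0.41 (SE 0.10, adjusted p = 0.00425), or 1.33-fold, and the gene was higher under all 11 alternatives, with adjusted p from 4.82e-10 to 0.0251. Leaving out 1 library at a time gave log2 fold changes from 0.38 to 0.54. Against input the log2 fold change of CPEB1 IP was -0.23 (SE 0.12, adjusted p = 0.178), and it passed the threshold without input library 1 (-0.31, adjusted p = 0.0219). IgG was well below input, at -0.76 (SE 0.15, adjusted p = 8.31e-05). In the annotation, 710 bases (24.4%) of the exons of Spry1 (chr3:37639947-37644598, + strand) are shared with Gm42922 on the other strand, which had at most 2 counts in any library. SMART-Seq2 does not keep the strand, so reads of both genes cannot be told apart there.

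Spry2 did not follow Spry1. Its level was 515 and 390.4 CPM in CPEB1 IP against 404 and 462 in IgG, with 245 and 367 in input. The CPEB1 IP libraries lay on either side of the IgG libraries, and both kinds of immunoprecipitation lay above input. Over IgG its log2 fold change was -0.01 (SE 0.12, adjusted p = 0.953), and its sign turned with the library left out (-0.18 to 0.21). Over input, Spry2 was higher in CPEB1 IP by 0.61 (SE 0.18, adjusted p = 0.0189) and in IgG by 0.50 (SE 0.16, adjusted p = 0.00921). The input libraries stood far apart, and without input library 1 or 2 the log2 fold change of CPEB1 IP over input was 0.32 or 0.91. It was not called without CPEB1 IP library 1 (0.42, adjusted p = 0.239). For IgG over input the same omissions gave 0.26 (adjusted p = 0.0618) and 0.80, and the call was lost without IgG library 1 (0.58, adjusted p = 0.0722) or 2 (0.38, adjusted p = 0.268).

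The pair can also be read within a library, where the library's scale cancels. The FPKM of Spry1 divided by that of Spry2 was 1.09 and 0.789 in input, 0.385 and 0.377 in IgG and 0.463 and 0.568 in CPEB1 IP. Both CPEB1 IP values were above both IgG values and below both input values. With 2 libraries against 2, an exact permutation test cannot pass the threshold, so these ratios are given without a test.

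Fgfr1 and Fgfr4 are the FGF receptors of the set, and they moved apart. Fgfr1 was at 2658 and 2207 CPM in CPEB1 IP against 3304 and 3027 in IgG, with 1872 and 1585 in input. CPEB1 IP lay between the other groups, with no overlap. Fgfr1 was lower in CPEB1 IP than in IgG by a log2 fold change of -0.45 (SE 0.10, adjusted p = 0.00257), or 1.36-fold. Fgfr1 kept that call under 7 of the 11 alternatives and was called in the other direction when the FPKM library totals set the scale (0.35, adjusted p = 7.34e-04). Without IgG library 1 the value was -0.33 (adjusted p = 0.0783), and without CPEB1 IP library 2 it was -0.29 (adjusted p = 6.69e-05). Over input, Fgfr1 was higher in CPEB1 IP by 0.54 (SE 0.14, adjusted p = 0.0115) and in IgG by 0.87 (SE 0.13, adjusted p = 7.13e-07). The call over input was lost without CPEB1 IP library 1 (0.42, adjusted p = 0.189). An antisense gene, Gm16159, shares 164 bases (1.66%) of the exons of Fgfr1 and had 26 to 59 counts for each library.

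Fgfr4, the FGF receptor typical of myogenic cells, was at 141 and 157 CPM in CPEB1 IP against 98.0 and 130.4 in IgG, with 549.7 and 469 in input. All 4 immunoprecipitated libraries lay far below input, and both CPEB1 IP libraries lay above both IgG libraries. Fgfr4 had the largest difference from input of the 9 genes in both immunoprecipitations, with log2 fold changes of -1.72 in CPEB1 IP (SE 0.14, adjusted p = 4.47e-06) and -2.16 in IgG (SE 0.17, adjusted p = 3.31e-13). Both calls held under all 11 alternatives, and with 1 library left out CPEB1 IP stayed between -1.84 and -1.61. Over IgG the log2 fold change of CPEB1 IP was 0.32 (SE 0.14, adjusted p = 0.0726), short of the threshold. It was positive under all 11 alternatives and passed under 4, among them without IgG library 2 (0.59, adjusted p = 0.012).

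Within a library, the FPKM of Fgfr4 was 0.819 and 0.826 times that of Fgfr1 in input, 0.0827 and 0.120 times in IgG, and 0.148 and 0.198 times in CPEB1 IP. The input libraries were nearly equal, all 4 immunoprecipitated libraries were lower, and both CPEB1 IP libraries lay above both IgG libraries.

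**Figure D2:**
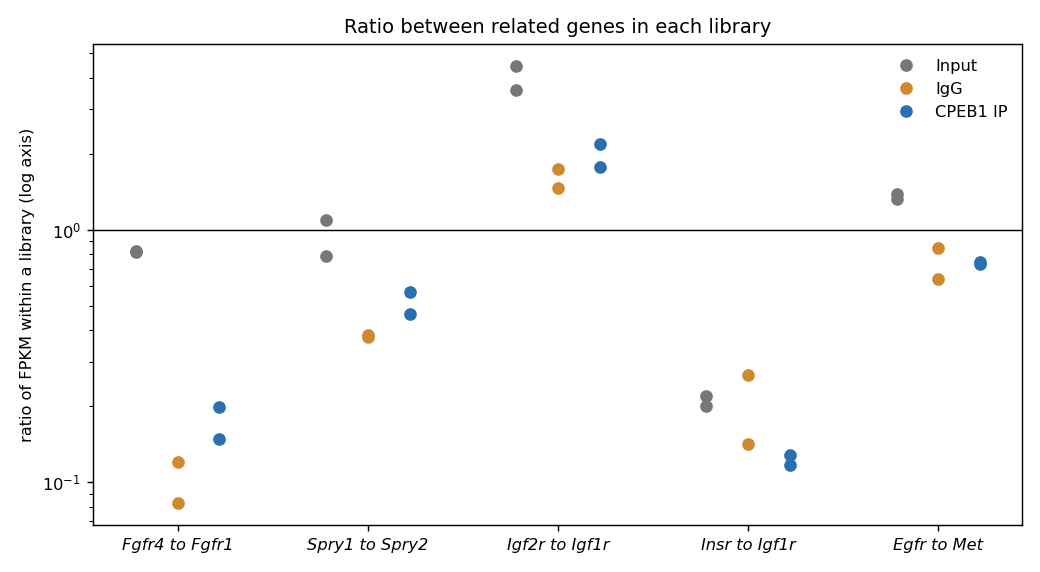
Ratio of FPKM between related genes within each library (log axis), with a line at 1. Points are libraries, coloured by group. The Fgfr4 to Fgfr1 ratio lies at 0.819 and 0.826 in input and at 0.198 or below in the 4 immunoprecipitated libraries, and Spry1 to Spry2 is lowest in IgG (0.377 and 0.385).

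Met was at 179 and 187 CPM in CPEB1 IP against 187 and 212 in IgG, with 142 and 137 in input. CPEB1 IP and IgG overlapped, and both lay above input. The log2 fold change of CPEB1 IP was -0.18 over IgG (SE 0.11, adjusted p = 0.211) and 0.44 over input (SE 0.13, adjusted p = 0.0220), and IgG over input gave 0.51 (SE 0.16, adjusted p = 0.0115). The call of CPEB1 IP over input held under 5 of 11 alternatives and was lost without CPEB1 IP library 1 (0.49, adjusted p = 0.164) or 2 (0.37, adjusted p = 0.348), and that of IgG over input without IgG library 1 (0.58, adjusted p = 0.0858) or 2 (0.40, adjusted p = 0.275).

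Egfr, the receptor of EGF and of HB-EGF, went the other way. It was at 194 and 206 CPM in CPEB1 IP against 234 and 199 in IgG, with 279 and 279.6 in input. CPEB1 IP and IgG overlapped and both lay below input. The log2 fold change of CPEB1 IP was -0.17 over IgG (SE 0.11, adjusted p = 0.244) and -0.43 over input (SE 0.13, adjusted p = 0.0209). IgG against input gave -0.37 (SE 0.15, adjusted p = 0.0517), which was negative under all 11 alternatives and passed under 7, among them DESeq2 (-0.51, adjusted p = 0.0421) and the fits without input library 1 (-0.35, adjusted p = 0.0338) or 2 (-0.39, adjusted p = 0.0173). The call of CPEB1 IP against input was lost without CPEB1 IP library 1 (-0.37, adjusted p = 0.312) or 2 (-0.51, adjusted p = 0.161). The FPKM of Egfr divided by that of Met was 1.33 and 1.38 in input, 0.849 and 0.636 in IgG and 0.735 and 0.745 in CPEB1 IP, so Egfr was the higher per length in input and Met in every immunoprecipitation.

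The insulin and IGF receptors differ in what they do. Igf1r and Insr are tyrosine kinases that signal growth and metabolism, while Igf2r, the mannose 6-phosphate receptor, carries IGF2 to lysosomes and has no kinase. Igf2r was at 159.6 and 186 CPM in CPEB1 IP against 145 and 143 in IgG, with 285 and 294 in input. Input stood clear above both immunoprecipitations, and CPEB1 IP above IgG. Against input, Igf2r was lower in CPEB1 IP by a log2 fold change of -0.69 (SE 0.13, adjusted p = 0.00187) and in IgG by -1.01 (SE 0.16, adjusted p = 2.48e-06). The first was called under 10 of 11 alternatives, the exception being without CPEB1 IP library 1 (-0.58, adjusted p = 0.0968), and the second under all 11. Over IgG the log2 fold change of CPEB1 IP was 0.21 (SE 0.12, adjusted p = 0.195), positive under all 11 alternatives and past the threshold under 3. The antisense RNA Airn lies in the same locus with 244 to 552 counts for each library and shares no annotated exon base with Igf2r. Only annotated exons were compared, so whether unspliced antisense reads entered the counts of Igf2r was not tested.

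Igf1r was at 162 and 152 CPM in CPEB1 IP against 150.4 and 176 in IgG, with 144 and 119 in input. The immunoprecipitations overlapped each other and lay above input. No comparison passed the threshold, with log2 fold changes of -0.12 over IgG (SE 0.12, adjusted p = 0.463) and 0.31 over input in CPEB1 IP (SE 0.15, adjusted p = 0.130), and 0.31 in IgG over input (SE 0.17, adjusted p = 0.157). Without input library 1 both differences from input passed, at 0.43 (adjusted p = 0.0096) and 0.48 (adjusted p = 0.0181). The FPKM of Igf2r was 3.57 and 4.46 times that of Igf1r in input, 1.74 and 1.47 times in IgG, and 1.77 and 2.20 times in CPEB1 IP.

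Insr was scarce and its values rest on few reads: 41 and 71 counts in CPEB1 IP against 43 and 28 in IgG, with 77 and 68 in input. In CPM these were 17.1 and 14.7, 32.7 and 20.4, and 23.6 and 21.4, so CPEB1 IP was lowest and IgG spanned the input. Insr was lower in CPEB1 IP than in IgG by a log2 fold change of -0.82 (SE 0.31, adjusted p = 0.0435), or 1.77-fold. The call held under 3 of 11 alternatives and was lost without CPEB1 IP library 1 (-0.88, adjusted p = 0.0958) or 2 (-0.67, adjusted p = 0.247) and without IgG library 1 (-0.40, adjusted p = 0.443). Against input the log2 fold change was -0.47 (SE 0.25, adjusted p = 0.172) in CPEB1 IP and 0.23 (SE 0.32, adjusted p = 0.600) in IgG. The FPKM of Insr divided by that of Igf1r was 0.200 and 0.220 in input, 0.265 and 0.142 in IgG and 0.128 and 0.118 in CPEB1 IP.

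Against input, 6 of the 9 genes were called in CPEB1 IP: Met, Fgfr1 and Spry2 higher, and Fgfr4, Igf2r and Egfr lower. Of all 12171 genes tested 32.8% were called, 17% higher and 15.8% lower. CPM ranges of CPEB1 IP and input were apart for all 9 genes, 4 higher and 5 lower, as they were for 67.3% of all genes (31.3% higher and 36% lower). In IgG against input, again 6 of 9 were called, with Met, Fgfr1 and Spry2 higher and Fgfr4, Igf2r and Spry1 lower, beside 40.7% of 12980 genes (21.4% higher and 19.4% lower). The ranges of IgG and input were apart for 8 of the 9, all but Insr, 4 of them higher and 4 lower, beside 70.8% of all genes (36.6% higher and 34.2% lower). Both comparisons use the same input libraries, so the likeness of the lists is no separate result. Side by side, the log2 fold changes of CPEB1 IP and of IgG were -1.72 and -2.16 for Fgfr4, -0.69 and -1.01 for Igf2r, 0.54 and 0.87 for Fgfr1, -0.23 and -0.76 for Spry1, and 0.44 and 0.51 for Met. CPEB1 IP had the larger value in size for Spry2 (0.61 and 0.50) and Egfr (-0.43 and -0.37), Igf1r had 0.31 in both, and Insr had -0.47 and 0.23.

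**Figure D3:**
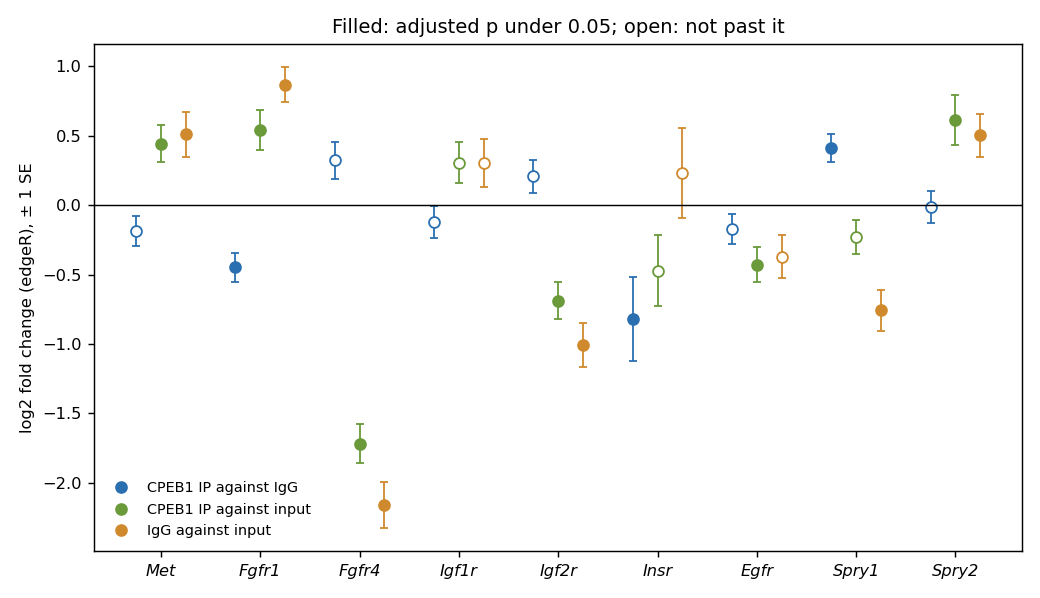
The log2 fold change of the 9 genes (vertical axis, edgeR) for CPEB1 IP against IgG, CPEB1 IP against input and IgG against input, with bars of 1 SE either way. Filled points have an adjusted p under 0.05. Spry1 at 0.41 is the only filled point above 0 for CPEB1 IP against IgG, and Fgfr4 is the lowest point of both comparisons with input (-1.72 and -2.16).

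The direction against IgG depended on the scale. With TMM the median of all genes was at -0.01. Dividing by the FPKM library totals instead raised the median of all genes by 0.85 on the log2 scale, DESeq2 by 0.28 and leaving out the filter on low counts by 0.40. DESeq2 too was run without that filter, and edgeR with RLE size factors on filtered genes raised the median by 0.01. With the FPKM totals 8 of the 9 genes were higher in CPEB1 IP, with Spry1 at 1.22, Fgfr4 at 1.13 and Igf2r at 1.01, and Insr at -0.01 not called, and of all 11503 genes tested in that setting 62.7% were called higher. Of all genes called, 44.0% were higher with TMM, 72.7% with DESeq2, 93.3% with the FPKM totals and 60.1% without the filter. Measured from the median of all genes under each scale, Spry1 lay between 0.37 and 0.42 above it, Fgfr4 between 0.29 and 0.33 above it, Fgfr1 between -0.49 and -0.44, and Insr between -0.86 and -0.80. A change of library size shifts all genes by nearly the same amount, and taking off the median removes such a shift by construction. The narrow ranges are therefore no separate result.

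**Figure D4:**
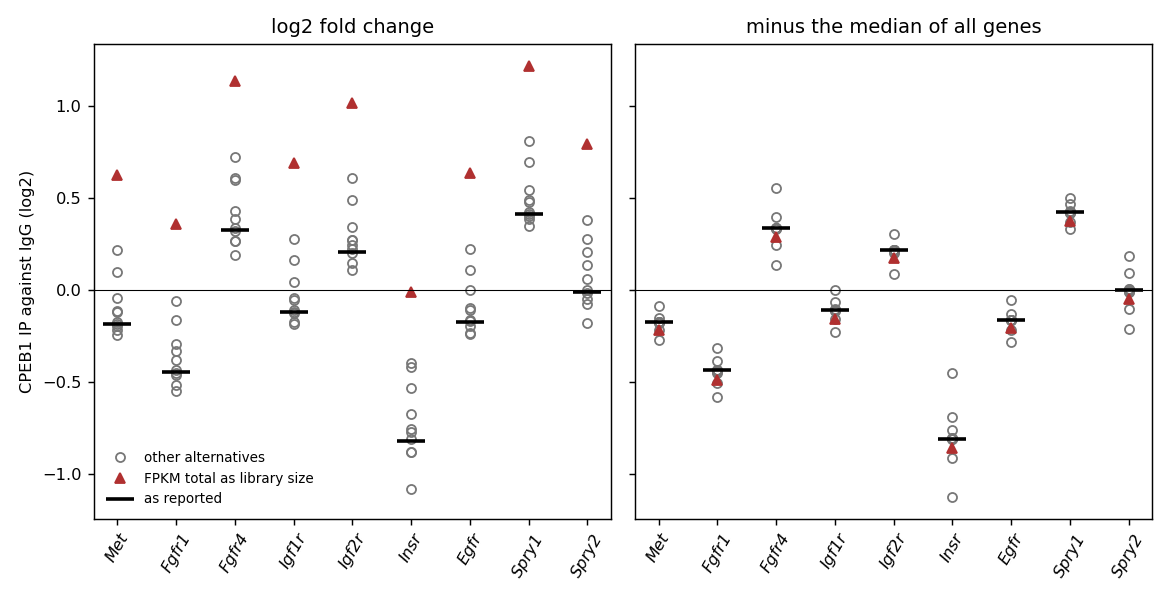
The log2 fold change of the 9 genes for CPEB1 IP against IgG as reported (black line), with the FPKM library totals (red triangle) and under the other alternatives (open circles), before (left) and after (right) the median of all genes of that setting is taken off. On the left the red triangles lie well above the black lines, at 1.22 for Spry1, and on the right they fall back beside them. A shift common to all genes is removed on the right by construction.

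The study's own criterion was a ratio of FPKM between CPEB1 IP and IgG above 2 in each of the 2 experiments, together with a count test by DESeq2. Here the count test was edgeR's, with DESeq2 as an alternative. With 1 added to each FPKM, Spry1 had ratios of 2.43 and 2.16 and met both parts. With edgeR it was the only one of the 9 genes to do so, where 1464 of 12124 genes (12.1%) did. Fgfr4 passed the ratio, at 2.22 and 2.00, and not the edgeR test. The ratio taken without any count test was passed by 14.4% of genes, those that met both parts included. With DESeq2 as the count test, both Fgfr4 and Spry1 met the criterion, among 1554 genes. DESeq2 was run on 42045 genes, so that number cannot be read against the 12.1%. In Spry2 only the first experiment passed (2.04 and 1.45), and in Igf2r only the second (1.67 and 2.07). The ratio was 1.5 and 1.48 for Met, 1.58 and 1.40 for Igf1r, 1.30 and 1.69 for Egfr, and 1.30 and 1.26 for Fgfr1, and it was 0.924 and 1.09 for Insr. The median of all genes tested was 1.45 and 1.52, so several of these ratios were near or below that of a typical gene. When FPKM was recomputed with TMM library sizes, 56 genes and none of the 9 met the criterion, with Spry1 at 1.46 and 1.21.

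The rest of the pathway was described from 6 lists of 121 genes, of which 120 were in the tables. Against IgG, 99 could be tested, and 20 were higher and 19 lower in CPEB1 IP (39.4%, where 33.4% of all genes were called). The median log2 fold change was 0.05, beside -0.01 over all genes. Against input, 20 of 98 genes were higher and 20 lower (40.8%, beside 32.8%).

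Ligands were few in these cells. Of 7 tested, 1 was higher and 3 lower in CPEB1 IP than in IgG, with a median of -0.24. Hbegf, which encodes the EGF receptor ligand HB-EGF, was at 444 and 413 CPM in CPEB1 IP and 307 and 297 in IgG, a log2 fold change of 0.44 (SE 0.10, adjusted p = 0.00159). The 3 lower ones were Hgf, the ligand of Met (3 and 6 counts in CPEB1 IP, 12 and 15 in IgG), Egf (5 and 11 against 21 and 12) and Nrg1, a ligand of ErbB receptors (8 and 5 against 9 and 22). All 3 rest on at most 22 counts for a library, in a comparison where the CPEB1 IP libraries were the deeper. The shallower IgG libraries nevertheless had counts on more genes. The part of this in the lower calls of scarce genes, here, for Insr and below, was not tested. Igf1, the ligand of Igf1r, was at 68.4 and 94.5 CPM in input and 30.8 and 28.3 in CPEB1 IP, lower by -1.42 (SE 0.19, adjusted p = 1.60e-04).

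Among the other receptor kinases, 6 of 24 were higher and 5 lower in CPEB1 IP than in IgG, around a median of 0.00. Musk, the kinase that gathers acetylcholine receptors at the neuromuscular junction, was at 1353 and 1343 CPM in CPEB1 IP against 765 and 779 in IgG, with 760 and 758 in input, a log2 fold change of 0.74 over IgG (SE 0.09, adjusted p = 6.38e-06) and 0.88 over input (SE 0.12, adjusted p = 1.83e-04). Ror1, a receptor of Wnt5a, had 112 and 118 CPM in CPEB1 IP and 72.2 and 60.5 in IgG, also 0.74 (SE 0.15, adjusted p = 6.19e-04). Both were called under all 11 alternatives. Erbb4 was lower with 5 counts in each CPEB1 IP library against 18 and 12 in IgG. Against input, the VEGF receptor Flt1 was higher by 1.99 (SE 0.25) and the collagen receptor Ddr2 by 0.82 (SE 0.13), and over IgG these were at 0.02 and -0.16 and not called. Flt1 is also an endothelial gene, and the endothelial markers given above moved in the same direction. Their part in the difference of Flt1 from input was not tested.

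Coreceptors and IGF-binding proteins had the highest list median against IgG, 0.20, with 5 of 16 higher and 3 lower. Igfbp5, which binds IGFs outside the cell, was at 360 and 372 CPM in CPEB1 IP against 198 and 204 in IgG, with 739 and 854 in input. It was higher than IgG by 0.80 (SE 0.10, adjusted p = 9.29e-06) and lower than input by -1.07 (SE 0.13, adjusted p = 6.28e-05). Sdc1, a heparan sulfate coreceptor, was higher over IgG by 0.76 (SE 0.15, adjusted p = 5.60e-04), and Igfbp6, which prefers IGF2, by 0.71 (SE 0.15, adjusted p = 0.00121). Sdc2 was higher than IgG by 0.71 (SE 0.18) and lower than input by -0.76 (SE 0.15). Igf2bp2, an RNA-binding protein that was placed in this list by its name, was higher than input by 0.65 (SE 0.15), with 0.01 over IgG and no call.

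Inside the cell, 4 adaptor and Ras-MAPK genes of 20 were higher in CPEB1 IP than in IgG and 1 was lower, with a median of 0.15. Irs2, the insulin receptor substrate, rose by 0.54 (SE 0.11, adjusted p = 5.65e-04), the MAPK kinase Map2k1 by 0.44 (SE 0.11, adjusted p = 0.00325) and the adaptor Shc1 by 0.45 (SE 0.14, adjusted p = 0.0148). Over input, the adaptors Gab2 and Grb2 were higher by 1.67 (SE 0.17) and 0.96 (SE 0.15). Of 9 PI3K-Akt genes, 1 was higher and 3 lower than in IgG, around -0.36. The kinase Akt2 was higher by 0.59 (SE 0.10, adjusted p = 1.28e-04), and the regulatory PI3K subunits Pik3r3 and Pik3r1 were lower by -1.45 (SE 0.43, adjusted p = 0.0121) and -0.73 (SE 0.21, adjusted p = 0.0124). Those 2 calls held under 5 of 11 alternatives each. Pik3r2 and Akt1 differed from input, at -1.35 (SE 0.24) and 0.66 (SE 0.15), and were not called against IgG.

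Besides Spry1 and Spry2, 23 other brakes on the pathway were tested. Against IgG 3 were higher and 4 lower, with a median of 0.03. Ptpn1, the phosphatase that takes phosphate off the insulin receptor, was at 426 and 409 CPM in CPEB1 IP against 219 and 241 in IgG, with 265 and 269 in input, a log2 fold change of 0.79 over IgG (SE 0.10, adjusted p = 1.03e-05) and 0.69 over input (SE 0.12, adjusted p = 0.00107). Socs3, an inhibitor of cytokine receptor signalling, was higher than IgG by 0.58 (SE 0.12, adjusted p = 0.00122) and lower than input by -1.15 (SE 0.15, adjusted p = 1.01e-04). Spred3, a relative of the Sprouty proteins, was lower than IgG by -1.45 (SE 0.35, adjusted p = 0.00307) with 17 and 46 counts in CPEB1 IP and 30 in each IgG library. Lrig1, which restrains Egfr and Met, and Grb10, an adaptor that dampens insulin signalling, were lower than input by -0.81 (SE 0.16) and -0.50 (SE 0.14) and not called against IgG. Spry1, at 0.41, was thus one among brakes that lay on both sides of IgG.

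**Figure D5:**
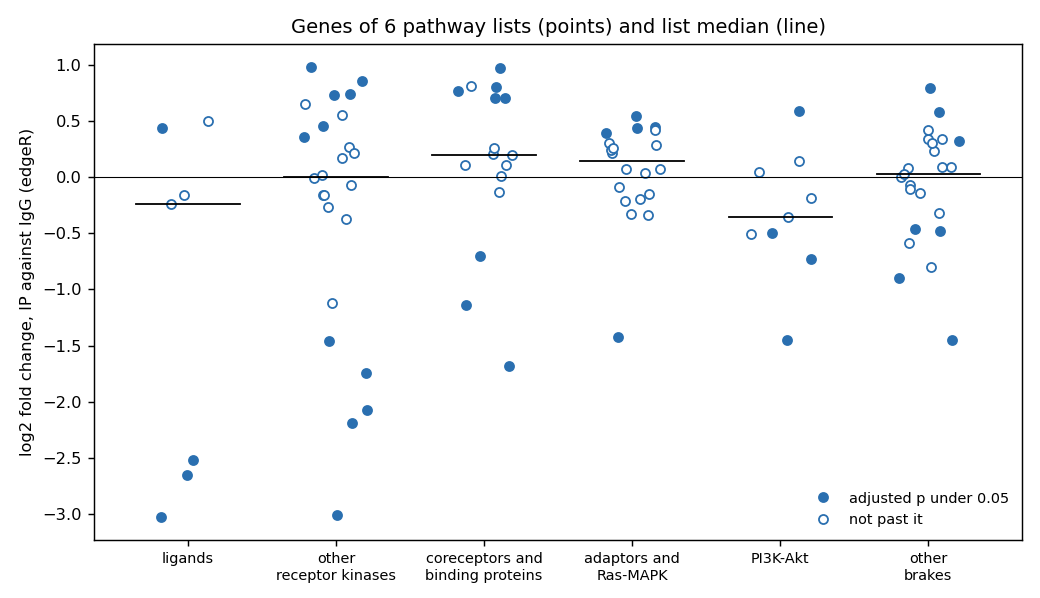
The log2 fold change for CPEB1 IP against IgG (vertical axis, edgeR) of the tested genes of the 6 pathway lists, with the list median as a line. Filled points have an adjusted p under 0.05. The list medians lie between -0.36 (PI3K-Akt) and 0.20 (coreceptors and binding proteins), and the lowest points, at -3.03 and -3.01, are Hgf and Erbb4, which rest on few counts.

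Genes with the most similar pattern were found for each of the 9 by the distance between log2 CPM values centred on their mean over the 6 libraries, among 10465 genes of mean FPKM over 1 (10466 for Insr, which is itself below that level). The nearest gene to Spry1 was Capn7, a calpain protease (distance 0.105), and that to Spry2 was Cep83, a centriolar protein (0.169). Fgfr4 was nearest to Foxred2 (0.187) and Fgfr1 to Fbxw2 (0.165). The others were Sdad1 for Met (0.107), Robo1 for Egfr (0.0829), Sh2b3 for Igf1r (0.110), Dnajc10 for Igf2r (0.134) and Xrn1 for Insr (0.241). None of the 9 was the nearest gene of another. Capn7 was at 74.2 and 63.8 CPM in CPEB1 IP against 44.8 and 49.5 in IgG, with 76.7 and 85.3 in input.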

How the data were processed

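Samples were grouped by their labels, and no sample column was left out. Reads were mapped by the authors to mm10 with HISAT and counted on genes with featureCounts, and the deposited counts are raw counts without normalization. The deposited FPKM were computed by the authors from the counts, the summed exon length and a library total larger than the counts on genes. The annotation release, strand setting and treatment of reads with several positions are not given in the sources used here.

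Tests on the counts used edgeR 4.0.16 under R 4.3.3 (filterByExpr, TMM, quasi-likelihood test on 2 groups at a time, Benjamini-Hochberg adjustment at 0.05). The SE of a log2 fold change was its absolute value over the root of edgeR's F. Precision with 2 libraries a group comes from a spread estimated over all genes. Scripts were tested on simulated data. DESeq2 1.42.0, edgeR with RLE size factors, counts on genes or FPKM library totals as library sizes, no filter, a replicate block, all 6 libraries in 1 fit and the omission of each library were the alternatives (11 for each comparison). DESeq2 was run on all genes with a count, without filterByExpr. Pseudocounts of 0.1 and 5 and TMM library sizes were alternatives for the FPKM ratio, whose pseudocount was 1.

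The study's methods divide CPEB1 IP by IgG of the same experiment. Deviations of same-numbered libraries from their group means had correlations of -0.0107 (CPEB1 IP and IgG), -0.0206 (CPEB1 IP and input) and 0.0324 (IgG and input) over 14276 genes, so the count test was left without a block.

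The 9 genes, the pathway lists and the marker lists were chosen with earlier results of these data known. Of each pathway list, the 3 genes of lowest adjusted p against IgG and up to 2 more against input were named. Gene positions and 3′ UTRs came from GENCODE M21 on the same assembly, and the steps used Python 3.11.15, numpy 2.4.6, pandas 2.3.3 and matplotlib 3.10.9.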

Additional observations from a re-analysis of the deposited data

How the results depend on the processing

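The counts that moved by over 1.5 times and the log2 fold changes that turned sign are given here. Of the other log2 fold changes of the 9 genes under an alternative, 34 lost a call, 18 gained one and 221 stayed on their side of the threshold, all in the same direction. Spry1 above IgG and Fgfr4, Igf2r and Spry1 in IgG against input kept their calls under all 11 alternatives, as did Fgfr4 in CPEB1 IP against input. No log2 fold change of CPEB1 IP against input changed its sign.

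The genes called for CPEB1 IP against IgG were 4044, and 7733 with the FPKM totals. For CPEB1 IP against input they were 3990, and 2420 with DESeq2, and for IgG against input 5287, and 2790 with DESeq2. With 1 library left out they were 1731 to 3533, 2043 to 4993 and 3064 to 4570, with 2143 and 1731 without CPEB1 IP library 1 and 2 in the first, 2240 and 2043 in the second, and 3115 and 3064 without IgG library 1 and 2 in the third. Such fits assume that a lone library varies like the others. Higher genes made up 51.9% of those called for CPEB1 IP against input, and 30.7% with the FPKM totals. For IgG against input the share was 52.4%, and 7.13% with the FPKM totals. Of the pathway genes, 39, 40 and 50 were called in the 3 comparisons. The FPKM totals gave 75 in the first, DESeq2 gave 26 in the second and 26 in the third, and omissions gave 18 to 36, 20 to 51 and 30 to 47.

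Beside the counts below stand the shares of all genes. For CPEB1 IP against IgG, DESeq2 called 6.23% of 42045 genes higher, the FPKM totals 62.7% of 11503 and no filter 8.36% of 42045. Lower there were 984, 521 and 2336 genes. For CPEB1 IP against input, the FPKM totals called 10.1% of 12046 higher. For IgG against input, DESeq2 called 2.97% of 40052 higher, no filter 10.3% of 40052, and the FPKM totals 4.59% of 12008, with 7172 lower. Of the 9 genes, 1 was higher and 2 lower in CPEB1 IP than in IgG. Higher were 3 with DESeq2, 8 with the FPKM totals, 4 without the filter and 1 to 2 with a library left out. Lower were 0 with DESeq2, the FPKM totals or no filter, 1 with all 6 libraries in 1 fit, and 0 to 2 with a library left out. Against input, 3 were higher and 3 lower in CPEB1 IP, with 0 higher under the FPKM totals and 0 to 4 higher and 1 to 4 lower with a library left out. In IgG against input, 3 were higher, with 1 under DESeq2, 0 with the FPKM totals, 1 without the filter and 1 to 3 with a library left out, and 3 were lower, with 5 under the FPKM totals. The FPKM criterion took 1464 genes, 673 with a pseudocount of 5 and 56 with TMM library sizes. It took 1 of the 9 genes, 0 with TMM sizes, 2 (Fgfr4 and Spry1) with DESeq2 and 1 to 2 with a library left out.

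Signs turned for CPEB1 IP against IgG as follows. With DESeq2, Met was at 0.10, Igf1r 0.16, Egfr 0.11 and Spry2 0.28. With the FPKM totals, Met was at 0.62, Fgfr1 0.35, Igf1r 0.69, Egfr 0.63 and Spry2 0.79. Without the filter, Met was at 0.21, Igf1r 0.28, Egfr 0.22 and Spry2 0.38, and in 1 fit of all 6 libraries Spry2 was at 0.059. With a library left out Igf1r lay between -0.18 and 0.043 (without IgG library 2) and Spry2 between -0.18 and 0.21 (without CPEB1 IP library 2), with 0.14 without IgG library 2. For IgG against input the FPKM totals gave -0.37 for Met, -0.0023 for Fgfr1, -0.57 for Igf1r, -0.64 for Insr and -0.39 for Spry2. Insr was also at -0.039 without the filter, and lay between -0.16 (without IgG library 1) and 0.52 with a library left out. The changes with another scale go with the shift of the median of all genes given above. For IgG against input that shift was -0.96 with the FPKM totals, -0.27 without the filter and -0.14 with DESeq2. The cause of the others was not tested.

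With the replicate number as a block, 3970 of 12124, 3741 of 12171 and 5458 of 12980 genes were called in the 3 comparisons. Pathway genes called were 38, 38 and 56. Of the 9 genes, 1 was higher and 1 lower in CPEB1 IP than in IgG, 3 higher and 2 lower than in input, and 3 higher and 4 lower in IgG than in input, and the FPKM criterion took 1435 genes and 1 of the 9. The block took the call from Insr against IgG (-0.77, adjusted p = 0.0512) and from Egfr against input (-0.43, adjusted p = 0.0521), and gave one to Egfr in IgG against input (-0.37, adjusted p = 0.0316).

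Depth limits Insr and the rare ligands, and the IgG libraries were the shallowest.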
